A study of Mus musculus with 45 samples.

Results

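Mouse B cells that lacked exon 1A of Prdm1 (dEx1A) were compared with wild type B cells after 4 days in a culture driven through the B cell receptor (BCR). The labels' genotype, culture and day picked out 6 of the study's 45 RNA-seq libraries, 3 of each genotype. The comparison covered 19657 autosomal genes that passed a filter on low values, of 27220 autosomal genes listed. All cells were splenic B2 cells from C57BL/6 background mice, and both genotypes were grown on irradiated L cells (a mouse fibroblast line) expressing CD40L, with IL-4, IL-5 and F(ab')2 fragments against IgM and IgG. The L cells were left behind at day 2, and the labels call the day 4 cells plasmablasts. The dEx1A donors were females of 9 weeks and the wild type donors males of 7 weeks, by their labels, although the protocol text describes matched sex and age. Genotype, sex and age, and colony where it differed, therefore cannot be told apart in this comparison. Genes of chromosomes X and Y were left out. Xist (3.91 to 4.19 in wild type, 14.71 to 15.46 in dEx1A libraries, log2) and Ddx3y (11.01 to 11.68 against 3.04) followed the labelled sex in all 6 libraries. The labels do not say that replicates came from separate animals, so the spread between libraries of a group may be technical. Unless said otherwise, p-values rest on this spread pooled over 39 libraries of 13 groups, and not on the 6 libraries compared.

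Prdm1 encodes Blimp-1, a zinc finger repressor that B cells switch on as they become antibody-secreting cells. Blimp-1 is known to shut down genes of the B cell state, Pax5 and Bcl6 among them, and to raise genes for antibody secretion. Exon 1A is one of several alternative first exons of the gene, so its loss can leave transcripts that start elsewhere. The deposited values are 1 number per gene, so reads of exon 1A cannot be separated from other Prdm1 reads.

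A start region of Prdm1 is shown because the genotype is the loss of a first exon of this gene. In GENCODE M21 (GRCm38) the gene spans chr10:44437177-44528501 on the minus strand and has 4 transcripts. The coding transcript with the longest span starts at position 44458748, the same base as the start in the RefSeq promoter table (GRCm38.p6), and a retained-intron transcript starts 69.8 kb upstream of it. The RefSeq window covers chr10:44458699-44458998, with 250 bases before the start and 50 after it. Capitals mark the bases from the start onward. The annotation used here does not say whether any of them belong to exon 1A, so the window may not be what dEx1A cells lack.
Prdm1: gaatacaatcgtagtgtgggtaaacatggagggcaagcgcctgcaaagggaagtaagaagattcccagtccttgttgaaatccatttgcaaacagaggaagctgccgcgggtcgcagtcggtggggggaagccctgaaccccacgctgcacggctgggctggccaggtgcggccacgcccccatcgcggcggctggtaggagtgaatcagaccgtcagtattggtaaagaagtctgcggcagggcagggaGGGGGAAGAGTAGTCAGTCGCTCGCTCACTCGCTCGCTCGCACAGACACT

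Prdm1 itself was lower in dEx1A cells. The deposited log2 value was 9.68, 9.32 and 10.23 in wild type replicates 1 to 3 and 8.45, 7.27 and 8.82 in dEx1A replicates 1 to 3. Every dEx1A library lay below every wild type library, and dEx1A replicate 2 lay furthest down. The means were 9.74 ± 0.46 and 8.18 ± 0.81 (SD, n = 3 each), and the difference was -1.56 ± 0.28 (SE) on the log2 scale, with a limma adjusted p of 0.000907. Wild type B cells before culture, at day 0, had 6.50 ± 0.47 (SD, n = 3), so Prdm1 in dEx1A cells at day 4 stood between uncultured and cultured wild type cells. RNA was measured in bulk, where fewer cells expressing a gene and less of its RNA per cell cannot be told apart. The call ended when the spread was estimated from these 6 libraries alone (adjusted p = 0.316), and it held without each of the 6 libraries in turn (adjusted p from 0.000201 to 0.024).

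**Figure D1:**
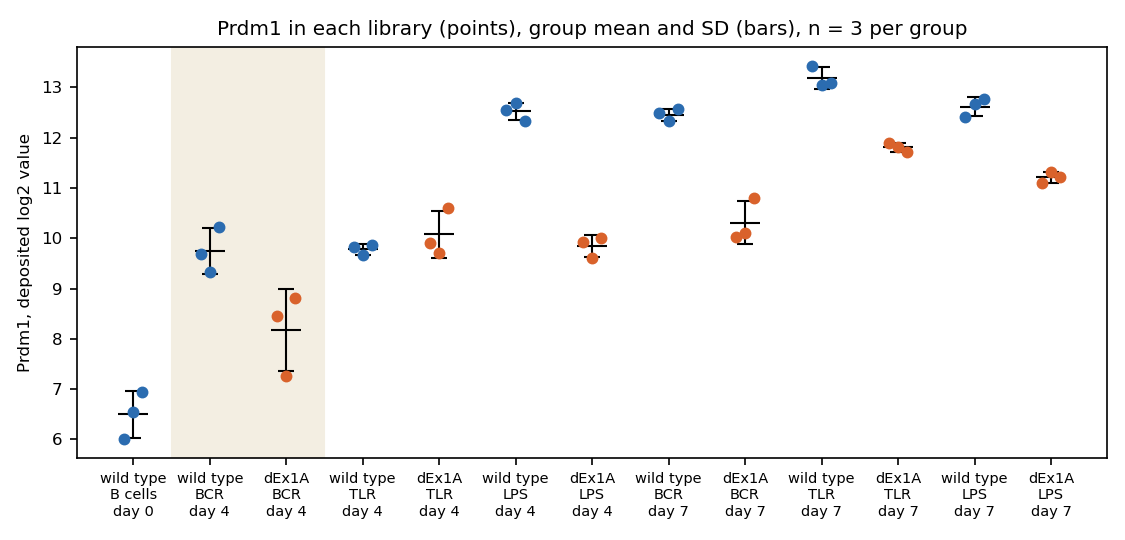
Prdm1 in each of 39 libraries by genotype, culture and day, as the deposited log2 value (points), with the group mean and SD (bars, n = 3 per group); the BCR culture at day 4 is shaded. The 3 dEx1A libraries of that culture lie between 7.27 and 8.82, below the wild type libraries at 9.32 to 10.23, while in the TLR culture at day 4 the genotypes overlap.

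Across all genes 349 passed at an adjusted p below 0.05, which is 1.78% of those tested. The test was limma on the deposited log2 values, with group means fitted over 39 libraries of 13 groups. Of these genes 226 were higher in dEx1A cells (1.15% of the genes tested) and 123 lower (0.626%), and 162 differed by at least 1 on the log2 scale. The median difference over all genes was 0.01. The 3 libraries of each genotype did not overlap in 346 of the 349 genes, against 3049 of all genes tested, which is 15.5%. Separation of the genotypes in a called gene is therefore no further result. Reads recovered from the deposited values numbered 20.41 to 31.37 M per library. With the 6 libraries fitted alone, and their spread not shared with other groups, 39 genes passed, 33 of them among the 349. A correction for GC content and length gave 737 genes, 374 higher and 363 lower, so the share of higher calls was 64.8% without it and 50.7% with it. Without dEx1A replicate 2 the count was 174, without dEx1A replicate 3 it was 212 and without wild type replicate 1 it was 199. The offset of GC-rich against GC-poor genes (log2) ran from -1.57 to 0.01 in wild type and from -1.17 to -0.38 in dEx1A libraries.

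**Figure D2:**
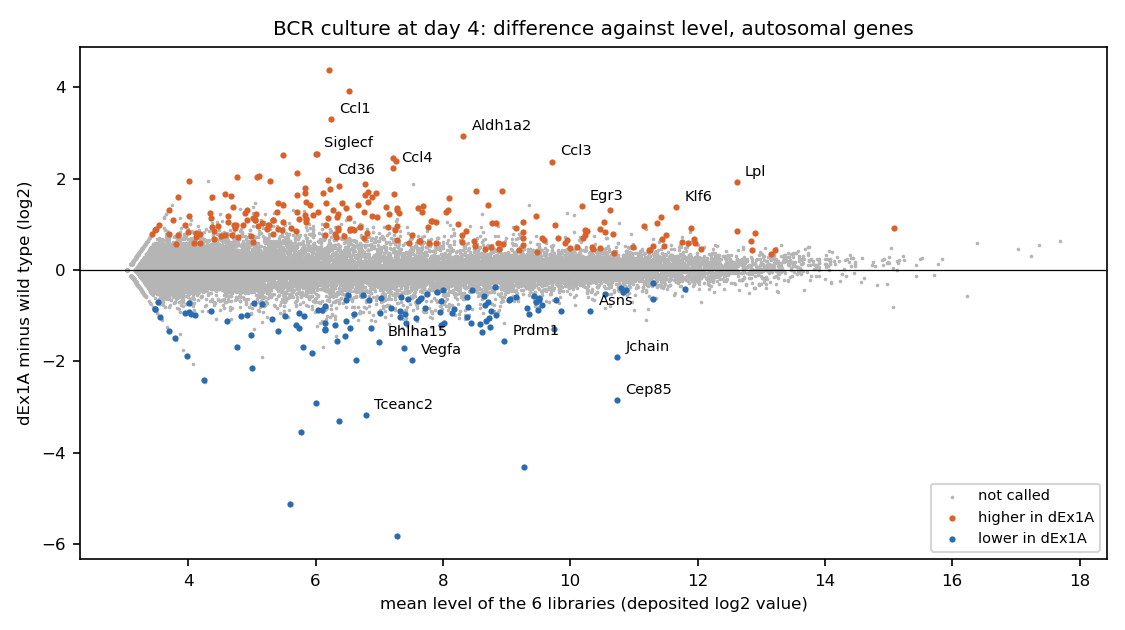
Difference of dEx1A minus wild type (log2, y axis) against the mean deposited log2 value of the 6 libraries (x axis) for each autosomal gene tested. Of the genes, 226 are called higher (orange) and 123 lower (blue), and Prdm1 sits at -1.56.

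The cells kept the profile of B cells in both genotypes. The pan-B gene Ms4a1, which encodes CD20, had high log2 values in all 6 libraries (13.17 to 14.05), and none of 7 mature B cell markers was called. Pax5, the factor that holds B cell identity, had 12.83 ± 0.07 in wild type and 12.80 ± 0.08 in dEx1A cells (SD, n = 3 each), with a limma adjusted p of 0.999. Bach2, which delays plasma cell differentiation, differed by -0.22 ± 0.16 (SE, adjusted p = 0.743). Among 26 B cell and germinal centre transcription factors 1 was called. That gene was Bcl6, the germinal centre repressor, and it was lower: 7.97, 8.16 and 7.74 in wild type libraries against 7.32, 7.54 and 7.12 in dEx1A libraries, a difference of -0.63 ± 0.16 (SE, adjusted p = 0.0273). The Bcl6 call ended without dEx1A replicate 1 (adjusted p = 0.0746), dEx1A replicate 3 (0.215), wild type replicate 1 (0.109) or wild type replicate 2 (0.165).

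The list of plasma cell genes gave 3 calls among 29, all lower in dEx1A cells (10.3% called, against 1.78% of all genes tested). The list median was -0.39 against 0.01 over all genes, and 22 of its differences were negative. The 3 called were Prdm1, Jchain and Cd93. Jchain, the chain that joins IgM and IgA into polymers, had log2 values of 11.58, 11.03 and 12.48 in wild type and 10.05, 8.95 and 10.36 in dEx1A libraries. The Jchain difference was -1.91 ± 0.41 (SE, limma adjusted p = 0.00698). Cd93, a surface receptor needed for long-lived plasma cells, fell by 1.28 ± 0.29 on the log2 scale (SE, adjusted p = 0.0119). Both calls rested on single libraries: that of Jchain ended without dEx1A replicate 2 (adjusted p = 0.118) or wild type replicate 3 (0.0893), and that of Cd93 without dEx1A replicate 1 (0.0573), dEx1A replicate 2 (0.114) or wild type replicate 3 (0.0727).

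Several other genes of the secretory fate did not pass the test. Irf4, a factor required for plasma cells, differed by -0.49 ± 0.18 (SE, adjusted p = 0.225), and Xbp1, which drives expansion of the secretory pathway, by -0.39 ± 0.17 (SE, adjusted p = 0.374). Sdc1, the plasma cell surface marker CD138, had log2 values of 6.69 to 7.40 in wild type and 6.57 to 7.00 in dEx1A libraries, and these ranges overlapped (adjusted p = 0.949). Bhlha15, which encodes the secretory cell factor Mist1, stood outside the list and fell: its 3 wild type libraries had 7.75, 7.84 and 7.78 and its dEx1A libraries 6.62, 5.79 and 6.24, a difference of -1.57 ± 0.29 (SE, adjusted p = 0.00123). Among 29 genes for folding, export and degradation in the endoplasmic reticulum, 1 was called. That was Sec24d, a coat protein of vesicles leaving the endoplasmic reticulum, at -1.02 ± 0.22 (SE, adjusted p = 0.00658; 0.0983 without dEx1A replicate 2).

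The calls among antibody genes were all lower. Of 13 immunoglobulin constant genes and Jchain, Jchain alone passed (7.69%, against 1.78% of all genes tested). Ighm, the heavy chain of IgM, differed by -0.56 (adjusted p = 0.544). The variable segments numbered 215, of which 7 were called, all lower, with differences from -1.18 to -0.89. In all, 204 of the 215 segments had negative differences, and their median was -0.69. Variable segments resemble one another, so reads can be split between them.

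Lists of genes that Blimp-1 is known to act on gave calls in both directions. Of 13 genes it is known to repress, 1 was higher and 1 lower (15.4% called, against 1.78% of all genes tested). S1pr1, the receptor that lets lymphocytes leave tissues, had 6.96, 7.26 and 7.20 in wild type libraries and 8.17, 7.58 and 7.95 in dEx1A libraries. The S1pr1 difference was 0.76 ± 0.18 (SE, limma adjusted p = 0.0185). The lower one was Bcl6. Myc differed by -0.11 (adjusted p = 0.953) and Ciita, the master switch of MHC class II, by -0.08 (adjusted p = 0.981). Of 9 genes Blimp-1 is known to induce, 1 was called (11.1%). It was Creb3l2, an endoplasmic reticulum stress factor, at -0.85 ± 0.23 (SE, adjusted p = 0.0416). The S1pr1 call ended without dEx1A replicate 1 (0.125), dEx1A replicate 3 (0.0917) or wild type replicate 1 (0.143), and the Creb3l2 call without dEx1A replicate 2 (0.387), wild type replicate 1 (0.0933), wild type replicate 2 (0.0524) or wild type replicate 3 (0.221).

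The highest differences included 3 chemokine genes. Ccl1, which encodes a ligand of the receptor CCR8, had log2 values of 4.61, 4.60 and 4.56 in wild type libraries and 6.96, 8.90 and 7.84 in dEx1A libraries. Wild type Ccl1 values were close together near the low end of the scale while dEx1A values were spread, and the difference was 3.31 ± 0.31 (SE, limma adjusted p = 8.8e-09). Ccl3, which encodes the inflammatory chemokine MIP-1 alpha, had 8.68, 8.75 and 8.16 in wild type and 10.40, 11.44 and 10.87 in dEx1A libraries, a difference of 2.37 ± 0.27 (SE, adjusted p = 8.49e-07). Ccl4, which lies beside Ccl3 and encodes MIP-1 beta, had 6.23, 6.30 and 5.79 against 7.76, 8.76 and 8.47, a difference of 2.22 ± 0.30 (SE, adjusted p = 1.14e-05). Genes named for the size of their difference were chosen to have no overlap between the genotypes, so their separation is no result. Of the 6 libraries, dEx1A replicate 2 had the least Prdm1 and the most of each of these 3 chemokine genes. The other dEx1A libraries went the other way: replicate 3 had more Prdm1 than replicate 1 (8.82 against 8.45) and more of all 3 chemokine genes. Among wild type libraries too, replicate 2 had the least Prdm1 (9.32) and the most Ccl3 and Ccl4, though not the most Ccl1. Replicate 2 also had the highest offset of GC-rich against GC-poor genes in its group, 0.01 in wild type and -0.38 in dEx1A. A relation between Prdm1 and these chemokine genes was not tested.

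Among 20 listed cytokine and chemokine genes, Ccl3 and Ccl4 were the 2 called (10.0%, against 1.78% of all genes tested). The list median was 0.59, and 18 differences were positive. This list, like the others, was drawn up with earlier results of these data known. Ccl22, the ligand of CCR4 that activated B cells make in quantity, had 16.04, 16.33 and 15.93 in wild type and 16.46, 16.87 and 16.75 in dEx1A libraries. Those values did not overlap, yet the difference of 0.59 missed the threshold (limma adjusted p = 0.323). Xcl1, a lymphotactin gene outside the list and chosen after its values were seen, was called at 2.03 (adjusted p = 0.000286) and kept its call without each library.

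Chemokines and several other risen genes are also made by myeloid cells, so myeloid markers are given beside them. None of 10 was called, 9 had positive differences, their median was 0.35, and their summed normalised reads ran from 556.3 to 794.0 in wild type and from 899.0 to 1225.6 in dEx1A libraries. The reads came mainly from Adgre1, the macrophage marker F4/80, and Cst3. Adgre1 had log2 values of 8.20 to 8.60 in wild type and 8.43 to 8.78 in dEx1A libraries, and Cst3 differed by 0.96 (adjusted p = 0.0743). Of the other markers, Cd14 (3.04 to 3.61) and Fcgr1 (3.04 to 3.48) were at or near 3.04, the value of 0 reads, and Csf1r had 3.87 to 4.91. T cell markers summed to 775.9 to 1377.4 normalised reads in wild type and 1006.8 to 1794.7 in dEx1A libraries, and NK cell markers to 323.4 to 528.2 and 110.5 to 683.2. Fibroblast markers, which the feeder cells could supply, summed to 2719.6 to 5049.8 in wild type and 3387.2 to 4694.4 in dEx1A libraries, with all 11 tested differences positive and a median of 0.43. Erythroid and platelet markers summed to 173.8 to 432.5 and 211.0 to 278.8. No marker of these lists was called, and the part of such cells in the chemokine and other differences was not tested.

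Immediate early genes are switched on within minutes by signals from receptors such as the BCR. Of 22 on the list 7 were called, all higher in dEx1A cells, and 15 were not (31.8% called, against 1.78% of all genes tested). The list median was 0.55 against 0.01 over all genes, and 19 differences were positive. Egr3, a zinc finger factor induced by antigen receptor signalling, had log2 values of 9.63, 9.65 and 9.17 in wild type and 10.83, 10.87 and 10.93 in dEx1A libraries. The Egr3 difference was 1.39 ± 0.20 (SE, limma adjusted p = 2.65e-05), and the dEx1A libraries were almost equal. Klf6, a Krüppel-like factor, had 11.19, 10.81 and 10.93 against 12.52, 12.19 and 12.34, a difference of 1.37 ± 0.22 (SE, adjusted p = 0.000163). Klf4, a relative that restrains B cell growth, had 7.22, 6.79 and 6.93 against 8.61, 8.16 and 8.39, a difference of 1.41 ± 0.24 (SE, adjusted p = 0.000483). The genotypes did not overlap in these genes, as in 346 of the 349 called genes, so this is no further result.

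All 3 members of the NR4A family of orphan nuclear receptors, which are used as reporters of antigen receptor signalling, were called. Nr4a3 had 6.82, 7.04 and 6.96 in wild type and 7.77, 8.69 and 8.41 in dEx1A libraries, a difference of 1.35 ± 0.22 (SE, adjusted p = 0.000345). Nr4a1, which encodes Nur77, rose by 1.35 ± 0.24 (SE, adjusted p = 0.00092) and Nr4a2 by 1.32 ± 0.26 (SE, adjusted p = 0.00303). Ier5, a further called member, differed by 0.50 ± 0.13 (SE, adjusted p = 0.0441). Nr4a1, Nr4a2 and Ier5 were named after their values were seen; the Nr4a2 call ended without dEx1A replicate 2 (0.057), and the Ier5 call without any of the 6 libraries (0.0798 to 0.185). The AP-1 genes on the list did not pass: Fos differed by 0.84 (adjusted p = 0.517), Fosb by 0.70 (0.803), Jun by -0.09 (0.977) and Junb by -0.17 (0.979). Egr1 and Egr2 differed by 0.73 (0.541) and 0.53 (0.141). Leaving out 1 library at a time gave 5 or 6 called members, and the 6 libraries fitted alone gave 2, Egr3 and Klf6.

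The receptor pathway itself gave no call. Of 27 genes for BCR signalling proteins, such as the kinases Syk and Lyn and the adaptor Blnk, none passed in limma, with a median of 0.08 and differences between -0.59 and 0.45. Inhibitory coreceptors, which dampen BCR signals through phosphatases, gave 3 calls among 18, all higher, with a median of 0.31 (16.7% called, against 1.78% of all genes tested). Pirb, a receptor for MHC class I, had log2 values of 5.92, 6.06 and 5.92 in wild type and 7.31, 7.71 and 7.78 in dEx1A libraries. The Pirb difference was 1.63 ± 0.25 (SE, limma adjusted p = 0.000111). Pirb has close relatives of the Pira type, so reads could be shared among them. Pira2, named after its values were seen, was called too at 2.12 (adjusted p = 0.00133). Cd5, a marker of chronically stimulated B cells, rose by 1.08 ± 0.24 (SE, adjusted p = 0.00867). Pdcd1, which encodes PD-1, rose by 1.32 ± 0.32 (SE, adjusted p = 0.0195). The Cd5 call ended without dEx1A replicate 2 (0.156) or wild type replicate 3 (0.0707), and the Pdcd1 call without dEx1A replicate 2 (0.259), dEx1A replicate 3 (0.0559), wild type replicate 1 (0.0728) or wild type replicate 3 (0.156).

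The calls among genes around NF-kB and survival were all higher. Of 18 NF-kB subunits, inhibitors and targets 3 were higher and none lower (16.7% called, against 1.78% of all genes tested). Nfkbid, a nuclear inhibitor-like partner of NF-kB, had 7.43, 7.42 and 6.98 in wild type and 8.32, 8.49 and 8.22 in dEx1A libraries. The Nfkbid difference was 1.07 ± 0.19 (SE, limma adjusted p = 0.000596). Nfkbiz, its relative, rose by 0.69 ± 0.18 (SE, adjusted p = 0.0324). Bcl2a1b and Bcl2a1a, genes of the anti-apoptotic A1 protein, rose by 0.92 ± 0.24 and 1.27 ± 0.31 (SE, adjusted p = 0.036 and 0.0207). They were the 2 called of 16 BCL2 family genes (12.5%). Bcl2a1 copies are nearly identical, so the split of reads between them is uncertain. Single libraries ended the calls of Nfkbiz (up to 0.206, without dEx1A replicates 2 or 3 or wild type replicates 1 or 3), Bcl2a1b (up to 0.22, without any library but wild type replicate 3) and Bcl2a1a (up to 0.133, without dEx1A replicates 2 or 3 or wild type replicates 1 or 2).

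Receptors for survival and help signals gave further calls. Of 18 TNF receptor genes 2 were higher (11.1% called, against 1.78% of all genes tested). Tnfrsf13c, the BAFF receptor of mature B cells, had 11.58, 11.59 and 11.83 in wild type and 12.25, 12.27 and 12.26 in dEx1A libraries, a difference of 0.59 ± 0.11 (SE, limma adjusted p = 0.00133). A correction for GC content and length ended the Tnfrsf13c call (adjusted p = 0.173). Tnfrsf4, which encodes OX40, rose by 1.15 ± 0.24 (SE, adjusted p = 0.00528; 0.0949 without dEx1A replicate 2 and 0.0839 without wild type replicate 3). Cd200, an inhibitory ligand, was the 1 called of 19 costimulatory and checkpoint genes: 8.67, 8.43 and 8.97 in wild type against 9.57, 9.60 and 9.66 in dEx1A libraries, a difference of 0.92 ± 0.18 (SE, adjusted p = 0.0023). Jak2, a kinase of cytokine receptors, was the 1 called of 25 interleukin receptor, JAK, STAT and SOCS genes, at 0.85 ± 0.23 (SE, adjusted p = 0.0412), and its call ended without any library but wild type replicate 3 (up to 0.241).

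Migration and growth control genes moved in both directions. Of 25 homing, egress and adhesion genes 2 rose and 1 fell (12.0% called, against 1.78% of all genes tested). S1pr1 rose, as did Ccr6, a chemokine receptor, at 0.99 ± 0.25 (SE, limma adjusted p = 0.0278). Itgb3, the integrin beta 3 chain, was the lower one, at -0.89 ± 0.21 (SE, adjusted p = 0.0149). The Ccr6 call ended without any library but wild type replicate 1 (up to 0.177), and the Itgb3 call without dEx1A replicate 2 (0.196), wild type replicate 1 (0.0968) or wild type replicate 2 (0.0667). Of 20 quiescence and cell cycle inhibitor genes 2 were higher (10.0% called). Pdcd4, an inhibitor of translation, had 9.97, 9.82 and 10.24 in wild type and 11.06, 10.98 and 11.14 in dEx1A libraries, a difference of 1.05 ± 0.19 (SE, adjusted p = 0.00133). Btg1, an antiproliferative gene, rose by 0.80 ± 0.18 (SE, adjusted p = 0.012; 0.0517 without dEx1A replicate 1 and 0.0968 without wild type replicate 2). None of 30 cell division genes was called, their median was -0.02, and Mki67, the proliferation antigen, differed by -0.26 ± 0.21 (SE, adjusted p = 0.802). Of 21 MYC and ribosome biogenesis genes 1 was called, Odc1, the first enzyme of polyamine synthesis, at 0.44 ± 0.10 (SE, adjusted p = 0.0137), and its call ended without dEx1A replicate 1 (0.0545), dEx1A replicate 3 (0.0529) or wild type replicate 2 (0.0953).

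The amino acid response was the list with the most genes called lower. ATF4 is a factor that cells translate when amino acids run short, and with CHOP it raises genes that import and make amino acids. Of 24 genes of this response 8 were lower in dEx1A cells and none higher (33.3% called, against 1.78% of all genes tested). On the list 23 differences were negative, and the list median was -0.40. Aldh1l2, a mitochondrial folate enzyme, had log2 values of 6.99, 6.91 and 7.45 in wild type and 5.42, 5.41 and 5.88 in dEx1A libraries, a difference of -1.55 ± 0.26 (SE, limma adjusted p = 0.000418). Asns, which makes asparagine, had 10.91, 10.38 and 11.00 against 10.11, 9.69 and 9.78, a difference of -0.90 ± 0.17 (SE, adjusted p = 0.00175). Slc1a4, a carrier of neutral amino acids, had 8.46, 8.37 and 8.40 against 7.51, 7.45 and 7.52, a difference of -0.92 ± 0.18 (SE, adjusted p = 0.00337). The 3 Slc1a4 values of each genotype lay within 0.1 of each other.

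The other 5 called members were Vldlr, Psat1, Trib3, Pycr1 and Chac1, of which all but Vldlr were named after their values were seen. Vldlr, a lipoprotein receptor gene, differed by -1.33 ± 0.25 (SE, adjusted p = 0.00153). Trib3, a pseudokinase that feeds back on ATF4, differed by -1.28 (adjusted p = 0.0372), Chac1, which breaks down glutathione, by -1.20 (0.0429), Pycr1, which makes proline, by -0.95 (0.0381) and Psat1, of serine synthesis, by -0.41 (0.0285). These 4 calls rested on several libraries each: they ended without dEx1A replicate 2, dEx1A replicate 3 or wild type replicate 1 in all 4 genes, with adjusted p from 0.0843 to 0.222, without wild type replicate 2 in Trib3 (0.203), Chac1 (0.182) and Pycr1 (0.0885), without wild type replicate 3 in Trib3 (0.0539), Pycr1 (0.131) and Psat1 (0.0759), and without dEx1A replicate 1 in Chac1 (0.0879). Atf4 and Ddit3, the gene of CHOP, differed by -0.09 (adjusted p = 0.915) and -0.37 (0.732) and were not called. Leaving out single libraries gave 4 to 7 called members, and the 6 libraries alone gave 1, Slc1a4.

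Promoters of 3 of the 8 called members are shown because these genes were called in 1 direction. The letters TGATGNAA, a core of the element that ATF4 binds with partners of the C/EBP family, were searched on both strands of RefSeq windows of 300 bases (GRCm38.p6). They occurred in at least 1 window of 8 of the 22 list genes with a RefSeq entry (36.4%) and of 4.51% of all 27025 genes in the table. The list was drawn up from genes of the ATF4 response, so a raised share of these letters was likely beforehand and is no result. Of the 7 called members with an entry, 6 held the letters, against 2 of 15 members not called. That split was not tested, and Trib3, Chac1 and Pycr1, among the 6, lost their calls without single libraries. Asns, Slc1a4 and Chac1 are printed here, with the match in capitals; in Slc1a4 and Chac1 the capitals are the reverse complement of the letters searched. The match starts 23, 4 and 193 bases before the annotated start. The windows are chr6:7693160-7693459 on the minus strand, chr11:20332664-20332963 on the minus strand and chr2:119350992-119351291 on the plus strand. Letters of 2 other elements were searched in the same windows. TGACGTCA, the cyclic AMP response element, was in none of the 22 list genes and in 2.03% of all genes, and TGANTCA, the AP-1 site, was in 2 of the 22 (9.09%), neither of them called, and in 8.97% of all genes. A match is a description of these letters and not a measured binding site.
Asns: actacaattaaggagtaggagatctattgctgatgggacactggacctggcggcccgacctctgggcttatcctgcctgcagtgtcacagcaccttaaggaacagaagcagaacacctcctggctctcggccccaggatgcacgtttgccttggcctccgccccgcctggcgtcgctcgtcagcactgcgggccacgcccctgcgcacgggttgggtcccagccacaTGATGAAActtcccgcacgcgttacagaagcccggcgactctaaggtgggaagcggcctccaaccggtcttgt
Slc1a4: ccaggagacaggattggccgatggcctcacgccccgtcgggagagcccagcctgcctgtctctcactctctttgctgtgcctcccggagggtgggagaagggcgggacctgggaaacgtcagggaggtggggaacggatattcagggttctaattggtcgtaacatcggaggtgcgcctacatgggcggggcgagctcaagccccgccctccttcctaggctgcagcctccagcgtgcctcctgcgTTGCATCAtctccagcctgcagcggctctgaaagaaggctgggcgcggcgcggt
Chac1: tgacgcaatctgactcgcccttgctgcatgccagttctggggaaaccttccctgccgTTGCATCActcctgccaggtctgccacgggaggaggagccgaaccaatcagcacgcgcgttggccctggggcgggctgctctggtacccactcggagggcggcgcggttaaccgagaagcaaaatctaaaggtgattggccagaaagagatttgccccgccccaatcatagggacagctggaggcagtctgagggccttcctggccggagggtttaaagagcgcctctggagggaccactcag

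**Figure D3:**
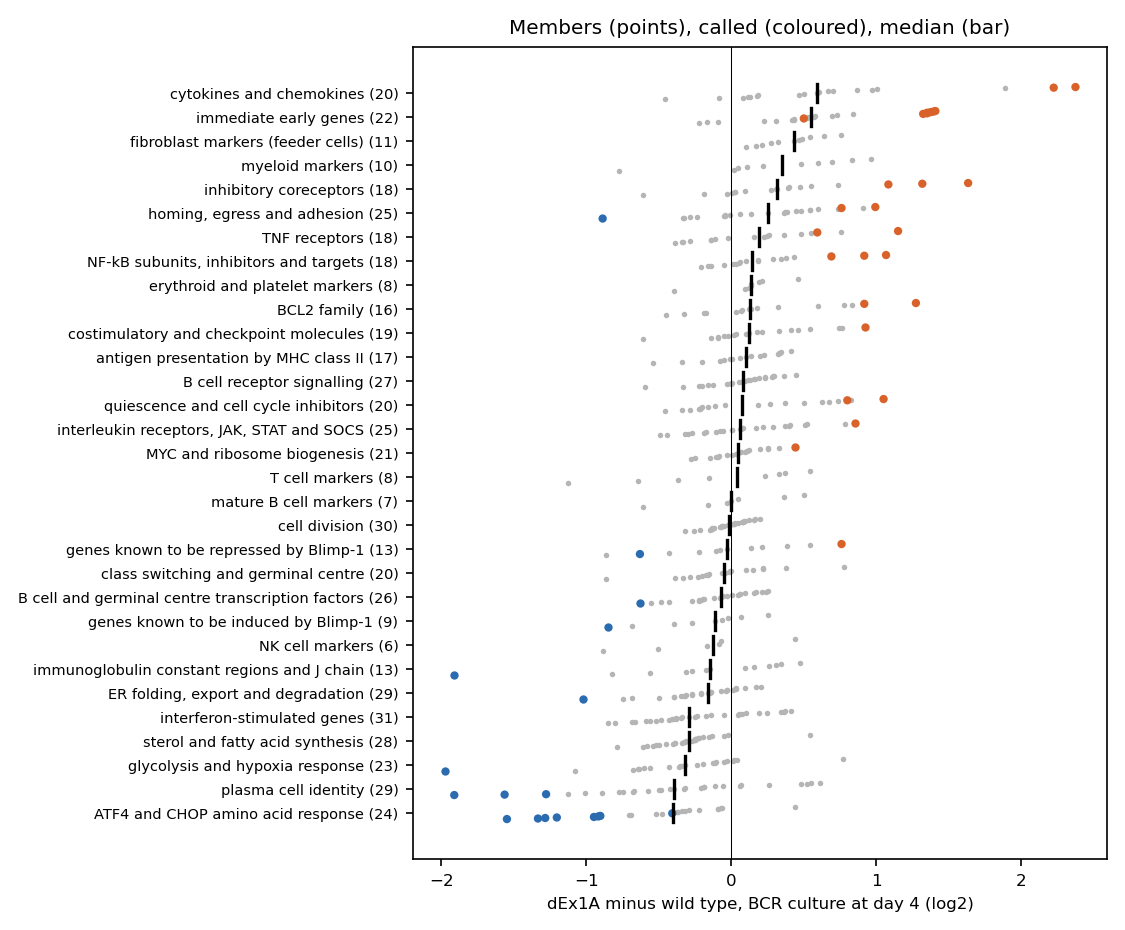
Difference of dEx1A minus wild type in the BCR culture at day 4 (log2, x axis) for each tested member of 31 gene lists, with the number tested in brackets; coloured points are called members and bars are list medians. The ATF4 list holds 8 called members, all lower, and the immediate early list 7, all higher.

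Other metabolic lists gave 1 call or none. Of 23 glycolysis and hypoxia genes 1 was called, Vegfa, the vascular growth factor, with log2 values of 8.31, 8.47 and 8.74 in wild type and 6.50, 6.52 and 6.57 in dEx1A libraries. The Vegfa difference was -1.98 ± 0.31 (SE, limma adjusted p = 0.000143), and the dEx1A libraries were nearly equal. Among 28 sterol and fatty acid synthesis genes none was called, although 27 differences were negative and the median was -0.29. No call was made among 31 interferon-stimulated genes (median -0.29), 17 genes of antigen presentation by MHC class II (median 0.10) or 20 of class switching and the germinal centre (median -0.05).

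Genes outside the lists made up most of the largest rises. Aldh1a2, which makes retinoic acid, had log2 values of 6.81, 6.92 and 6.83 in wild type and 9.37, 10.16 and 9.84 in dEx1A libraries, a difference of 2.94 ± 0.25 (SE, limma adjusted p = 1.76e-09). Siglecf, a sialic acid receptor best known on eosinophils, had 4.66, 4.55 and 4.97 against 6.69, 7.75 and 7.38, a difference of 2.55 ± 0.29 (SE, adjusted p = 8.49e-07). Cyp1a1, a target of the aryl hydrocarbon receptor, had 4.84, 4.83 and 4.59 against 6.28, 8.43 and 7.18, a difference of 2.54 ± 0.34 (SE, adjusted p = 1.5e-05). The dEx1A replicate 2 library was the highest in each of these 3 genes. A second target of that receptor, Cyp1b1, was called too, at 1.46 (adjusted p = 0.012), while the receptor gene Ahr differed by 0.51 (adjusted p = 0.514); both were named after their values were seen, and the Cyp1b1 call ended without dEx1A replicate 2 (0.189), wild type replicate 1 (0.0627) or wild type replicate 3 (0.0752).

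Penk, the enkephalin precursor, rose by 2.45 ± 0.51 on the log2 scale (SE, limma adjusted p = 0.00535; 0.0975 without dEx1A replicate 2). Lpl, the lipoprotein lipase, was among the more abundant risen genes, with 11.80, 11.56 and 11.59 in wild type and 13.25, 13.84 and 13.65 in dEx1A libraries. Its difference of 1.93 ± 0.46 (SE, adjusted p = 0.0178) was called with the 6 libraries alone too (0.0252), but ended without any library but dEx1A replicate 1 (up to 0.114). Cd36, a fatty acid receptor, rose by 1.96 ± 0.35 (SE, adjusted p = 0.000902). Rgs2, a brake on G protein signalling, rose by 1.73 ± 0.26 (SE, adjusted p = 8.6e-05), Hapln1, a matrix link protein, by 1.78 ± 0.27 (0.0001), Gprin2 by 1.83 ± 0.31 (0.000392) and Emp1, an epithelial membrane protein, by 1.73 ± 0.40 (0.0154). The Emp1 call ended without dEx1A replicate 2 (0.0861), dEx1A replicate 3 (0.0942) or wild type replicate 1 (0.129).

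**Figure D4:**
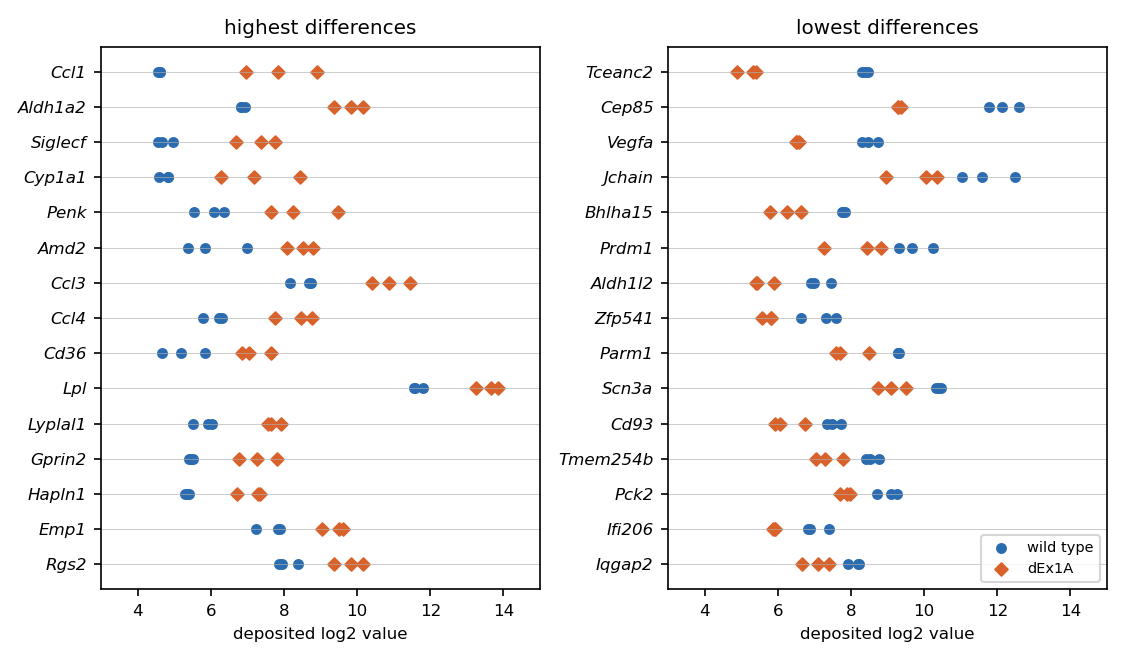
Deposited log2 value (x axis) in each of the 6 libraries of the BCR culture at day 4 for the 15 highest (left) and 15 lowest (right) differences chosen by a size rule; circles are wild type and diamonds dEx1A. The differences run from 3.31 for Ccl1 to -3.18 for Tceanc2, and genes were admitted only where the genotypes did not overlap.

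Several large differences, in both directions, were called in the TLR culture at day 4 too but not in the LPS culture, where wild type donors were females of 9 weeks like the dEx1A donors. Tceanc2, a gene related to transcription elongation factors, had 8.46, 8.29 and 8.37 in wild type and 4.87, 5.31 and 5.41 in dEx1A libraries of the BCR culture, a difference of -3.18 ± 0.18 (SE, limma adjusted p = 8.45e-14). Its difference was -3.69 in the TLR culture and -0.05 in the LPS culture, in which wild type cells had a mean of 4.90. The Tceanc2 level of these wild type LPS libraries was thus that of dEx1A cells. Tmem254b and Tmem254c followed the same course, with -1.20 and -1.05 in the BCR culture, -1.06 and -0.97 in the TLR culture and 0.13 and -0.09 in the LPS culture. Tmem254 copies are close paralogs, and reads could be split between them. The pseudogene Tdg-ps had 4.37, 4.68 and 0.05 and the pseudogene Gm9855 3.91, 3.75 and -0.15 in the same 3 cultures. Cep85, a centrosome gene, had -2.85, -3.11 and -0.75, and was called in the LPS culture also (adjusted p = 0.0407). Tmem254c, Tdg-ps and Gm9855 were named after their values were seen. Whether such differences go with sex, age, colony or the Prdm1 deletion cannot be told apart in the BCR and TLR cultures.

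The other large falls included 3 genes that held in each leave-out: Parm1, a mucin-like protein, at -1.36 ± 0.22, Scn3a, a sodium channel, at -1.28 ± 0.20 and Zfp541, a zinc finger gene, at -1.45 ± 0.29 (SE, limma adjusted p = 0.00024, 0.00015 and 0.0035). Pck2, the mitochondrial enzyme that makes phosphoenolpyruvate, fell by 1.16 ± 0.28 (SE, adjusted p = 0.0177), Ifi206, an interferon-induced gene, by 1.13 ± 0.30 (0.0385) and Iqgap2, a scaffold protein, by 1.06 ± 0.29 (0.0479). Their calls depended on single libraries: Pck2 lost it without dEx1A replicates 2 or 3 or wild type replicates 1 or 2 (up to 0.105), Iqgap2 without any library but dEx1A replicate 1 (up to 0.338), and Ifi206 without any of the 6 (0.0628 to 0.272).

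Counts near Prdm1 itself stand beside a share called of 1.78% over all genes tested and 2.34% on chromosome 10. Within 1 Mb of the gene 27 genes were tested and 1 was called, the lower 4933404K13Rik, whose call ended without any library but dEx1A replicate 1 (up to 0.195). Within 10 Mb 108 were tested, with 3 higher and 1 lower. The higher genes included Gm9855 and Amd2, a copy of the polyamine enzyme gene Amd1. Amd2 had 5.84, 5.37 and 7.00 in wild type and 8.80, 8.08 and 8.51 in dEx1A libraries, a difference of 2.39 ± 0.36 (SE, limma adjusted p = 0.0001), while Amd1 differed by 0.14 (adjusted p = 0.94). Amd2 was higher in dEx1A cells of all 4 sets of libraries looked at here, by 2.29 in the TLR and 2.83 in the LPS culture at day 4 and by 2.17 in the BCR culture at day 7. Reads of Amd1 and Amd2 could be exchanged between the copies.

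The genotypes were also compared in the TLR culture, which differed in its trigger, LPS in place of antibody fragments, and shared no library with the BCR culture. In the TLR culture at day 4, 1407 genes were called, which is 7.16% of those tested, 4.01% higher and 3.15% lower. Of the 226 genes higher in the BCR culture 22 (9.73%) were also higher there, which is 2.79% of the 788 genes higher in the TLR culture. Of the 123 lower genes 43 (35.0%) were also lower, 6.95% of the 619. The TLR differences of the 226 had a median of 0.03 and those of the 123 a median of -0.44. In the LPS culture at day 4, where 24.5% of genes were called, 12.5% higher and 12.0% lower, 47 of the 226 (20.8%) were higher and 32 (14.2%) lower, and 41 of the 123 (33.3%) were lower and 9 (7.32%) higher. The LPS donors of both genotypes shared sex and age, but the composition of that culture is not given in the sources used here. Of the 65 genes called the same way in the BCR and TLR cultures, 17 were called that way in the LPS culture also, 42 were not called there and 6 went the other way.

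The difference between the 2 cultures was tested directly, as the genotype difference in the BCR culture minus that in the TLR culture at day 4. It was called for 146 genes, 0.743% of those tested, 112 of them with the more positive difference in the BCR culture and 34 with the more negative. Prdm1 was among the latter. Its log2 value in the TLR culture was 9.83, 9.66 and 9.86 in wild type and 9.91, 9.71 and 10.61 in dEx1A libraries, and these overlapped, with a difference of 0.29 ± 0.28 (SE, limma adjusted p = 0.571). The BCR difference was lower than the TLR difference by -1.86 ± 0.40 (SE, adjusted p = 0.015). That call ended without wild type BCR replicate 3 (0.0769), dEx1A BCR replicate 2 (0.0722) or dEx1A TLR replicate 3 (0.073), and with these 12 libraries fitted alone (0.216). Wild type cells had nearly the same Prdm1 level in both cultures at day 4, 9.74 ± 0.46 and 9.78 ± 0.11 (SD, n = 3 each).

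Of the 20 cytokine and chemokine genes 2 were called for this difference between the cultures, of the 22 immediate early genes 2 and of the 18 inhibitory coreceptors 4. Over all genes tested the share was 0.743%. Ccl1 had a TLR difference of -0.12 and an excess in the BCR culture of 3.43 ± 0.43 (SE, limma adjusted p = 5.08e-05). Aldh1a2 had 0.16 in the TLR culture and an excess of 2.78 ± 0.36 (SE, adjusted p = 5.08e-05), and Ccl4 -0.12 with an excess of 2.35 ± 0.42 (SE, adjusted p = 0.00306). Nr4a3 had -0.28 in the TLR culture and an excess of 1.63 ± 0.32 (SE, adjusted p = 0.00679), and Nr4a1 -0.78 with an excess of 2.13 (adjusted p = 0.000821). The calls of these 5 genes held without each of the 12 libraries. Those of Ccl3 (1.77), Pirb (1.49) and Cd5 (1.41) ended without 4, 8 and 7 of the 12, with adjusted p up to 0.107, 0.12 and 0.178, and Nr4a2 was not called (1.39, adjusted p = 0.0652). Egr3 and Klf6 rose in both, by 0.70 and 0.84 in the TLR culture, and their differences between cultures were not called (adjusted p = 0.299 and 0.52). Among the 24 ATF4 list members none differed between the cultures by this test, and Vldlr had -1.33 in the BCR and -1.29 in the TLR culture.

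**Figure D5:**
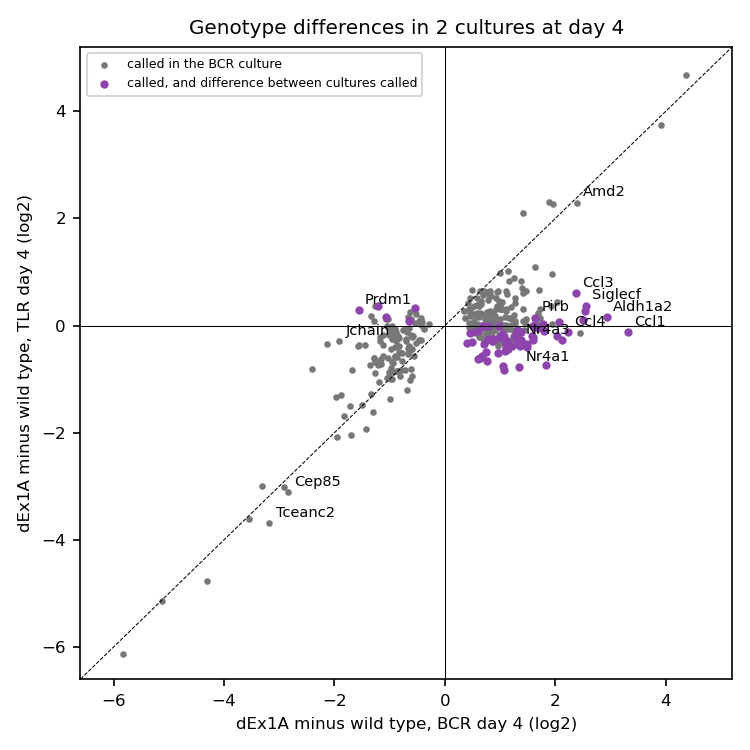
Genotype difference in the TLR culture (log2, y axis) against that in the BCR culture (log2, x axis) at day 4, for the 349 genes called in the BCR culture; purple points are genes whose difference between cultures is called, and the dashed line marks equality. Ccl1 and Aldh1a2 lie near 0 on the y axis at 3.31 and 2.94 on the x axis, while Tceanc2 and Cep85 lie near the line of equality.

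The gene lists are set side by side here by their counts, and the differences between their counts were not tested. Over all genes tested 1.15% were called higher and 0.626% lower in the BCR culture at day 4. The shares were 4.01% and 3.15% in the TLR culture and 12.5% and 12.0% in the LPS culture. Counts of different cultures therefore do not compare directly. The immediate early list, with 7 higher and none lower and a median of 0.55 in the BCR culture, had 3 higher and 2 lower with a median of -0.05 in the TLR culture and 2 higher and 11 lower with a median of -0.69 in the LPS culture. The ATF4 list, with 8 lower, had 2 lower and none higher in the TLR culture and 6 lower and 2 higher in the LPS culture. The plasma cell list, with 3 lower, had 1 higher and 1 lower in the TLR culture and 2 higher and 22 lower in the LPS culture. Prdm1 in the LPS culture was 12.52 ± 0.17 in wild type and 9.85 ± 0.22 in dEx1A cells (SD, n = 3 each), a difference of -2.68 (limma adjusted p = 1.86e-08). Immunoglobulin variable segments had a median of -0.08 in the TLR and -2.21 in the LPS culture, beside -0.69 in the BCR culture.

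By day 7 of the BCR culture 50.9% of the genes tested were called between the genotypes, 26.1% higher and 24.8% lower in dEx1A cells. In the day 7 dEx1A libraries GC-rich genes stood higher against GC-poor ones, by 0.67 to 1.62 (log2), than in wild type libraries, at -1.13 to 0.31, so genotype and this property cannot be told apart there. Of the 226 higher genes at day 4, 100 (44.2%) were called higher at day 7 and 43 (19.0%) lower, and of the 123 lower genes 80 (65.0%) were called lower and 15 (12.2%) higher. Prdm1 rose with time in both genotypes, to 12.46 ± 0.12 in wild type and 10.31 ± 0.43 in dEx1A cells (SD, n = 3 each), a difference of -2.15, and the change of the difference from day 4 was not called (limma adjusted p = 0.261). Aldh1a2 was still higher at day 7, by 2.69, Ccl3 by 1.84 and Ccl4 by 2.09. Jchain differed by -3.54 at day 7. Ccr6 and Egr3, both higher at day 4, differed by -3.08 and -1.25 at day 7. Genes called in the same direction in the BCR culture at both days and in the TLR and LPS cultures at day 4 were Amd2, Car12, Ier5, Lyplal1, Nek6 and Vim on the higher side. On the lower side they were Cep85, Endou, Entpd4, Fmn2, Gm26880, Gm42031, Gm43305 and Vegfa. Of these, Ier5 lost the day 4 call in the BCR culture without each of the 6 libraries in turn (limma adjusted p from 0.0798 to 0.185). Vim lost it without dEx1A replicate 2 (0.0763) or wild type replicate 3 (0.0638). Fmn2 lost it without dEx1A replicate 2 (0.114) or wild type replicate 2 (0.0528), and Endou without dEx1A replicates 2 or 3 or wild type replicates 2 or 3 (up to 0.221).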

How the data were processed

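Mouse RNA was sequenced with a stranded total RNA kit as single reads, per the labels' protocols. Deposited tables hold 1 log2 value per gene and library; per their names, the values are RSEM gene-level output after variance stabilisation. Per the submitters' processing notes the tools named are DESeq2 1.22.2 and R 3.5.1, RSEM 1.3.0 and STAR 2.6.0c, and Trim Galore 0.6.0 and FastQC 0.11.8. The builds named are mm10, GRCm38.p6 and GRCh38.p12. The sources used here give no roles, annotation or strand setting. The transformation compresses genes with few reads toward its floor of 3.04, so low genes' differences are understated.

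Group means of 13 groups in 39 libraries were fitted with limma 3.58.1 in R 4.3.3 (26 residual degrees of freedom, trend on the mean). Genes at least 1 above the floor in at least 3 libraries were kept (20331), and two-sided p-values were adjusted by Benjamini-Hochberg over them. Counts are over autosomal genes. Reads were recovered by inverting the transformation, and 95.2 to 100.0% of recovered values under 20 reads were whole within 0.1. Run as a count test on these reads, limma's voom called 418 genes against 349. Names and coordinates came from GENCODE M21. Cnksr3 was left out because 1 value lay below the floor. Same-group libraries differed by a chi-square per gene of at least 11.28, so none was a copy.

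Same-numbered libraries of the 2 genotypes deviated together (correlations 0.307, 0.871 and 0.698), so by a rule that each exceed 0.1 the numbers were taken to pair them, from the data. Unless a replicate block is named, the p-values given are from fits without this pairing. Number 1 is the weakest, since dEx1A replicate 1 correlated more with wild type replicate 3 (0.612). Named genes were the 15 highest and 15 lowest differences among called protein-coding genes with all 3 libraries of each group on their own side and a mean of at least 7, up to 4 called members per list, the 6 highest and 6 lowest differences between cultures, and 8 fixed genes. The genes and lists were chosen with earlier results of these data known. The fit was tested on simulated data. Alternatives were other scalings, filters, spreads and corrections, and leaving out each library.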

Additional observations from a re-analysis of the deposited data

Results flagged for a closer look

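For 20 named genes the genotype difference in the BCR culture at day 4 differed from that in the TLR culture by the test of the difference itself (limma interaction, adjusted p below 0.05). Values are the BCR difference minus the TLR difference on the log2 scale. It was -1.86 for Prdm1, 3.43 for Ccl1, 2.78 for Aldh1a2, 2.18 for Siglecf and 2.27 for Cyp1a1. Of the chemokines Ccl3 had 1.77 and Ccl4 2.35. Gprin2 had 2.57, Hapln1 1.76, Pirb 1.49, Cd5 1.41, Nfkbid 1.26 and Nr4a3 1.63. The TNF receptor genes Tnfrsf13c and Tnfrsf4 had 0.69 and 1.59. More negative in the BCR culture were Cd24a at -1.79, Zfp704 at -1.57, Enpp6 at -1.50, Neto2 at -1.38 and Elovl6 at -1.37.

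Cd24a, the heat-stable antigen, was not called within the BCR culture (-0.61, adjusted p = 0.314), and nor were Enpp6 (-0.69, 0.153), Neto2 (-0.25, 0.844) or Elovl6 (-0.61, 0.208). Zfp704 was called there at -1.20 (adjusted p = 0.00972, but 0.139 without dEx1A replicate 2 and 0.0698 without wild type replicate 3). Leaving out each of the 12 libraries in turn, 7 of the 20 calls held every time, namely Ccl1, Aldh1a2, Siglecf, Ccl4, Gprin2, Nr4a3 and Cd24a. For the other 13 the highest adjusted p without 1 library ran from 0.0604 to 0.178. With the 12 libraries fitted alone 3 held, Ccl1, Aldh1a2 and Gprin2. Groups of 3 are too small for a search for single outlying libraries.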

How the results depend on the processing

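The 349 calls in the BCR culture at day 4 became 737 with the GC and length correction, 39 with the 6 libraries alone, 816 with replicate block and GC correction together and 6 with replicate block on the 6 libraries alone, the last 2 chosen after seeing the data. Without single libraries the count ran from 174 to 351. Under the replicate block, with the replicate number added to the fit of 39 libraries, it was 385, and all 58 named genes called kept their calls. The 146 genes that differed between the BCR and TLR cultures became 546 with the GC correction, 260 with log2(normalised reads + 8), 28 with the groups compared alone, 223 after re-centring, 616 with block and GC correction, 1079 with block on the groups compared alone, and 57 to 248 without single libraries. The 6683 genes whose difference changed from day 4 to day 7 became 3702 with the groups compared alone and 3273 with the block on them, and the 1667 that differed between the BCR and LPS cultures became 2623 with the GC correction and 2790 with the block added. The cause of these changes was not tested, except that the fits on fewer groups have fewer samples.

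Prdm1 kept its value of -1.56 on the 6 libraries alone but not its call (adjusted p = 0.316, or 0.129 with the block). Of the 58 named genes called, 34 held in every leave-out, 10 with the 6 libraries alone and 2 with the replicate block on those 6 libraries. None of the 58 changed sign under any alternative run. Of uncalled genes, Pax5 turned to 0.076 with the GC correction, with or without the block, and ran from -0.062 to 0.017 without single libraries, and Sdc1 from -0.345 to 0.01. With 3 libraries per group, small differences are limited by the spread between libraries.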
